A study of Mus musculus with 9 samples.

Results

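MondoA, encoded by Mlxip, is a transcription factor that senses glucose-6-phosphate. It binds DNA together with its partner Mlx at carbohydrate response elements, and Txnip and Arrdc4 are its best known target genes. Txnip, Arrdc3 and Arrdc4 encode alpha-arrestins, adaptor proteins that bring ubiquitin ligases to membrane proteins. TXNIP also binds thioredoxin and promotes removal of the glucose transporter GLUT1 from the cell surface. These 5 genes were followed by symbol through a table of 16509 genes measured by RNA sequencing, of which 11949 could be tested. Txnip, Arrdc3, Mlxip and Mlx have a row, and all 4 passed the filter on low counts. Arrdc4 is not analysed here, and neither is Mlxipl, which encodes the MondoA paralog ChREBP.

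The 9 libraries came from MC38, a mouse colon carcinoma cell line, in 3 groups of 3. Ctrl cells received vehicle, which is DMSO in the labels and PBS in the paper. Cu-Cys cells received copper and cystine, and Cadict cells received a nanodrug that carries Cu-Cys together with glucose oxidase (GOx, an enzyme that consumes glucose) and the EGFR-binding peptide GE11. The question was how each treatment changed transcription in these cells, and the dose and time of treatment of these libraries are not given in the sources used here. MC38 is 1 cell line, so a difference between groups was measured in 1 genetic background. The methods state that in vitro experiments were repeated independently at least 3 times and that legends give the number of biological replicates. The legend for the RNA sequencing gives n = 3. The labels do not say whether these libraries came from separate cultures. Where they did not, p-values measure only the spread between these libraries, which may be technical.

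The libraries held 17905771 to 18293056 expected counts (read counts estimated per gene). The 50 most abundant genes took 22.1% to 23.0% of the counts in Cadict libraries, against 11.8% to 11.9% in Ctrl and 12.3% to 12.5% in Cu-Cys. The factors of the TMM method, which takes most genes as unchanged, were 0.640 to 0.665 in Cadict libraries, 1.26 to 1.27 in Ctrl and 1.21 in Cu-Cys. Scaling therefore bears on each comparison with Cadict. With TMM the median log2 fold change of all genes was -0.13 for Cadict against Ctrl, and with library totals it was -1.08. For Cu-Cys against Ctrl it was 0.0067 and -0.061. Levels below are TMM-scaled counts scaled to a common library total (CPM), log2 fold changes are from edgeR's quasi-likelihood test, and adjusted p-values are by Benjamini-Hochberg over all 11949 genes. "Rose" and "fell" mean an adjusted p not above 0.05, and "called" means a change of at least 2-fold with an adjusted p not above 0.001.

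The colon label was set beside cell type markers. Epcam was at 0 in all Ctrl and Cu-Cys libraries and Cdx2 is not analysed here. The 6 epithelial and intestinal markers present summed to 5.32 to 6.83 CPM in Ctrl, 3.97 to 4.38 in Cu-Cys and 24.0 to 26.1 in Cadict. Cdh1 and Krt19 made up most of these sums. The 5 fibroblast and mesenchymal markers summed to 2725 to 2786, 2455 to 2557 and 2040 to 2410 CPM, most of it Vim. Mean Vim was 2056, 2103 and 2060 CPM in Ctrl, Cu-Cys and Cadict. Col1a2 was at 568, 315 and 124 CPM and Pdgfra at 39.1, 22.8 and 6.49 CPM. Mean Col1a1 and Pdgfrb were also lower in both treated groups than in Ctrl. The 3 blood markers present, of 5, summed to at most 0.261 CPM in every library. The rise of the epithelial sum moved with Cadict, and the lower collagen and Pdgfr levels with both treatments. Their part in the results on the members was not tested. In bulk RNA, fewer cells of a kind and less RNA per cell cannot be told apart.

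The promoters of the members were searched for the glucose-responsive element. A carbohydrate response element consists of a pair of E-box-like sites 5 bases apart, and the letters CACGNGNNNNNCACGNG stand for it here. These letters have both sites in the same direction. Pairs of sites facing opposite ways, or with other bases, were not searched. The 250 bases before the RefSeq start site were searched on both strands on build GRCm38.p6. The deposited counts come with the build names GRCm39 and GRCh38.p13, so these coordinates are those of RefSeq alone. Capitals mark matches to this element or to CACGTG, the E-box bound by many basic helix-loop-helix factors. The 4 promoters shown are those of the members with values, which allows the genes that fell and rose to be set side by side.
Txnip, chr3:96557707-96557956, plus strand: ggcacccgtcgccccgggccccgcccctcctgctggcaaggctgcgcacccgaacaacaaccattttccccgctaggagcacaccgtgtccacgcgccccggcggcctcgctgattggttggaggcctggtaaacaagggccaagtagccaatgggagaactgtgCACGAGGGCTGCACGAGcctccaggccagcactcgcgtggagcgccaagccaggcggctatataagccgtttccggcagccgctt
Arrdc3, chr13:80883134-80883383, plus strand: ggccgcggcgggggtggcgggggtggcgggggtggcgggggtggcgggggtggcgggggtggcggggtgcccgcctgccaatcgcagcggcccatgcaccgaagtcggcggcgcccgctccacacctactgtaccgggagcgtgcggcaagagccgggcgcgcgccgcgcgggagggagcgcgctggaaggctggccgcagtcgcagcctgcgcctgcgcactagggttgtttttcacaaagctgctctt
Mlxip, chr5:123394548-123394797, plus strand: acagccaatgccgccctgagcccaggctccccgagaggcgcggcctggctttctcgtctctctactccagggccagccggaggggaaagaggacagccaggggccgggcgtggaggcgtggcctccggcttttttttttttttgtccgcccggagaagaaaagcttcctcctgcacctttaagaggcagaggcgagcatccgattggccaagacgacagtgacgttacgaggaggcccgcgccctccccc
Mlx, chr11:101087040-101087289, plus strand: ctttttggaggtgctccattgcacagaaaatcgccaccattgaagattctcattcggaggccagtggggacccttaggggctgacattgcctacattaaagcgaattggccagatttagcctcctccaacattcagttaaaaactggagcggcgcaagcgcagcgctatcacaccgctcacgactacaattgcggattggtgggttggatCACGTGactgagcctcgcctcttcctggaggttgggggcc
The Txnip promoter held 1 match to the paired element, 85 to 69 bases before the start site, which 0.0457% of 32841 promoters of the same length held. Txnip was known as a target gene before the search, and the pattern has the layout of its match. The match and its rarity therefore cannot test whether Txnip differs from the other members in such elements. It also held 2 matches to CCAAT, the box bound by NF-Y, and 10.1% of promoters held at least 2. The Mlx promoter held 1 E-box, 40 to 35 bases before the start site, and 6.02% of promoters held at least 1. The Arrdc4 promoter at chr7:68749239-68749488 on the minus strand held 1 E-box and 6 matches to the NF-Y box. Neither the Arrdc4 nor the Mlx window held a match to the paired element as written here, and an element of another layout could have been missed. At least 5 matches to the NF-Y box stood in 0.213% of promoters. The Arrdc3 window, taken at the most upstream of 3 listed start sites, and the Mlxip window held neither the paired element as written here nor this E-box. The NF-Y box matched once in the former and 2 times in the latter.

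Txnip (Entrez 56338), the alpha-arrestin and thioredoxin-binding target gene of MondoA, was lowest in Cu-Cys cells. Its level was 11.0, 8.83 and 10.2 CPM in the Ctrl libraries (10.02 ± 1.10, SD, n = 3). In Cu-Cys it was 5.08, 5.21 and 4.88 CPM (5.06 ± 0.167, SD, n = 3). In Cadict it was 19.7, 14.4 and 18.8 CPM (17.6 ± 2.85, SD, n = 3). On this scale the 3 groups did not overlap, and the Cadict group had the widest spread. With Cu-Cys Txnip fell by 0.99 on the log2 scale (SE 0.13, adjusted p = 2.55e-05), or 1.98-fold, just under the 2-fold limit. With Cadict its log2 fold change against Ctrl was 0.82 (SE 0.11, adjusted p = 6.4e-06), but this direction turned with the scaling.

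On library totals Txnip was at 14.0, 11.2 and 12.9 CPM in Ctrl and at 12.9, 9.19 and 12.5 CPM in Cadict. These ranges overlapped, and the log2 fold change was -0.14 (adjusted p = 0.287). It was -0.13 (adjusted p = 0.278) with limma on the deposited FPKM and -0.43 (adjusted p = 0.00952) on the deposited TPM. Relative to the median of all genes the difference was 0.94 with TMM, DESeq2 size factors, the authors' size factors and library totals. A scaling shifts all genes alike, so this agreement was fixed in advance and adds no weight to the value. Txnip mRNA in Cadict cells was higher than in Ctrl cells relative to the typical gene, while its share of all counts overlapped that of Ctrl. The direct comparison of Cadict with Cu-Cys gave 1.80 (SE 0.13, adjusted p = 2.08e-09), and it stayed positive under every alternative run, at 0.92 (adjusted p = 8.14e-06) with library totals.

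Arrdc3 (Entrez 105171), an alpha-arrestin that takes part in the turnover of membrane receptors, fell with both treatments and most with Cadict. Its level was 22.9, 23.7 and 23.0 CPM in Ctrl (23.2 ± 0.436, SD, n = 3), 13.3, 12.2 and 12.1 CPM in Cu-Cys (12.5 ± 0.673, SD, n = 3) and 3.99, 3.49 and 3.61 CPM in Cadict (3.70 ± 0.265, SD, n = 3). The groups stood far apart and the replicates close together. The counts behind the Cadict values were 47, 40 and 43, against 528 to 548 in Ctrl. Arrdc3 fell by 0.89 with Cu-Cys (SE 0.070, adjusted p = 2.56e-07). It fell by 2.65 with Cadict (SE 0.099, adjusted p = 7.68e-13), which is 6.27-fold and was called. Cadict was also called lower than Cu-Cys, at -1.76 (SE 0.11, adjusted p = 3.47e-10). Arrdc3 was lower under every scaling, unit and left-out library tried in all 3 comparisons, and the Cadict change against Ctrl ran from -3.75 to -2.40.

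Mlxip (Entrez 208104), the MondoA gene, did not pass the test with Cu-Cys and fell with Cadict. It was at 25.7, 23.8 and 27.6 CPM in Ctrl (25.7 ± 1.94, SD, n = 3) and at 28.8, 24.6 and 26.8 CPM in Cu-Cys (26.7 ± 2.14, SD, n = 3). These ranges overlapped, and the log2 fold change was 0.057 (SE 0.092, adjusted p = 0.649). In Cadict it was at 14.3, 15.3 and 19.6 CPM (16.4 ± 2.85, SD, n = 3), below every other library. The log2 fold change was -0.64 (SE 0.11, adjusted p = 3.86e-05) against Ctrl and -0.70 (SE 0.11, adjusted p = 1.7e-05) against Cu-Cys, under 2-fold in both. With library totals the value against Ctrl was -1.60 (adjusted p = 5.2e-10), which was called.

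Mlx (Entrez 21428), the obligate partner of MondoA and ChREBP, moved the other way. It was at 20.8, 22.2 and 21.3 CPM in Ctrl (21.4 ± 0.667, SD, n = 3), 25.6, 26.1 and 27.0 CPM in Cu-Cys (26.2 ± 0.724, SD, n = 3) and 71.2, 68.6 and 72.8 CPM in Cadict (70.9 ± 2.13, SD, n = 3). The 3 groups did not overlap. Mlx rose by 0.29 with Cu-Cys (SE 0.060, adjusted p = 0.00118), a 1.22-fold change. It rose by 1.72 with Cadict (SE 0.058, adjusted p = 2.2e-13), which is 3.30-fold and was called. Cadict against Cu-Cys was called too, at 1.43 (SE 0.057, adjusted p = 2.03e-12). With library totals the changes with Cadict were smaller, at 0.77 (adjusted p = 4.52e-09) against Ctrl and 0.55 (adjusted p = 3.07e-07) against Cu-Cys, and were not called.

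**Figure D1:**
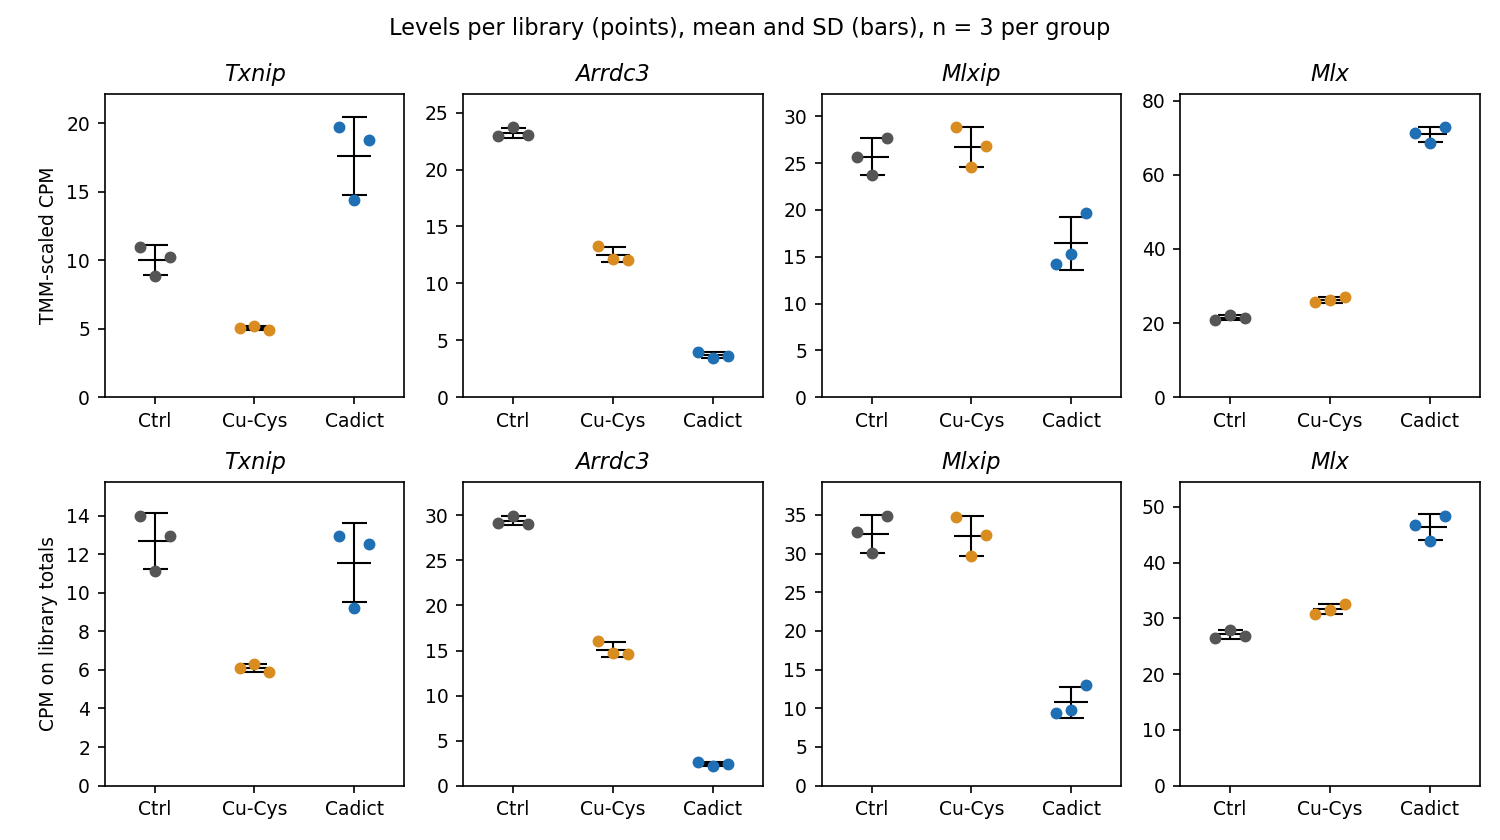
Level of Txnip, Arrdc3, Mlxip and Mlx in each of 9 libraries, as TMM-scaled CPM in the upper row and CPM on library totals in the lower row, with a point per library and the mean and SD of each group of 3. Arrdc3 steps down from Ctrl through Cu-Cys to Cadict and Mlx stands highest in Cadict in both rows, whereas Txnip in Cadict lies above Ctrl in the upper row and overlaps Ctrl in the lower one.

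With Cadict against Ctrl, 2 of the 4 members were called, Arrdc3 lower and Mlx higher, where 47.8% of all genes tested were called. All 4 passed the test at 0.05, as did 87.7% of all genes, and all 4 had groups that did not overlap, as did 87.5%. The members' counts are thus near the background of that comparison. With library totals the 2 members called were Arrdc3 and Mlxip, both lower. With Cu-Cys against Ctrl, 0 of the 4 were called by edgeR, where 1.64% of all genes were called, and 3 of the 4 passed the test at 0.05 and had groups that did not overlap, shares that all genes reached at 45% and 61.2%. The same 3 had an unadjusted p under 0.05, and DESeq2 also called 0 of the 4. The falls of Txnip and Arrdc3 with Cu-Cys were the 343rd and 431st lowest of 11949 log2 fold changes. The count of 0 rested on the 2-fold limit. It was 1 without Ctrl replicate 2 and 1 without Cu-Cys replicate 2, in both cases by Txnip at -1.07 and -1.01. Between Cadict and Cu-Cys, Txnip, Arrdc3 and Mlx were called, 3 of 4 where 42.2% of all genes were called. All 4 passed the test at 0.05 there, as did 85.9% of all genes. With library totals Txnip (0.92) and Mlx (0.55) lost that call and Mlxip gained one (-1.59), so that Arrdc3 and Mlxip were called, and the count was 2 on FPKM and TPM as well.

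The pattern of Txnip, a fall with Cu-Cys and a rise with Cadict on TMM-scaled counts, was shared by 394 of 11949 genes (3.3%), while 2017 (16.9%) fell with both treatments as Arrdc3 did. These comparisons share the Ctrl libraries, and with library totals Txnip did not pass the test with Cadict.

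**Figure D2:**
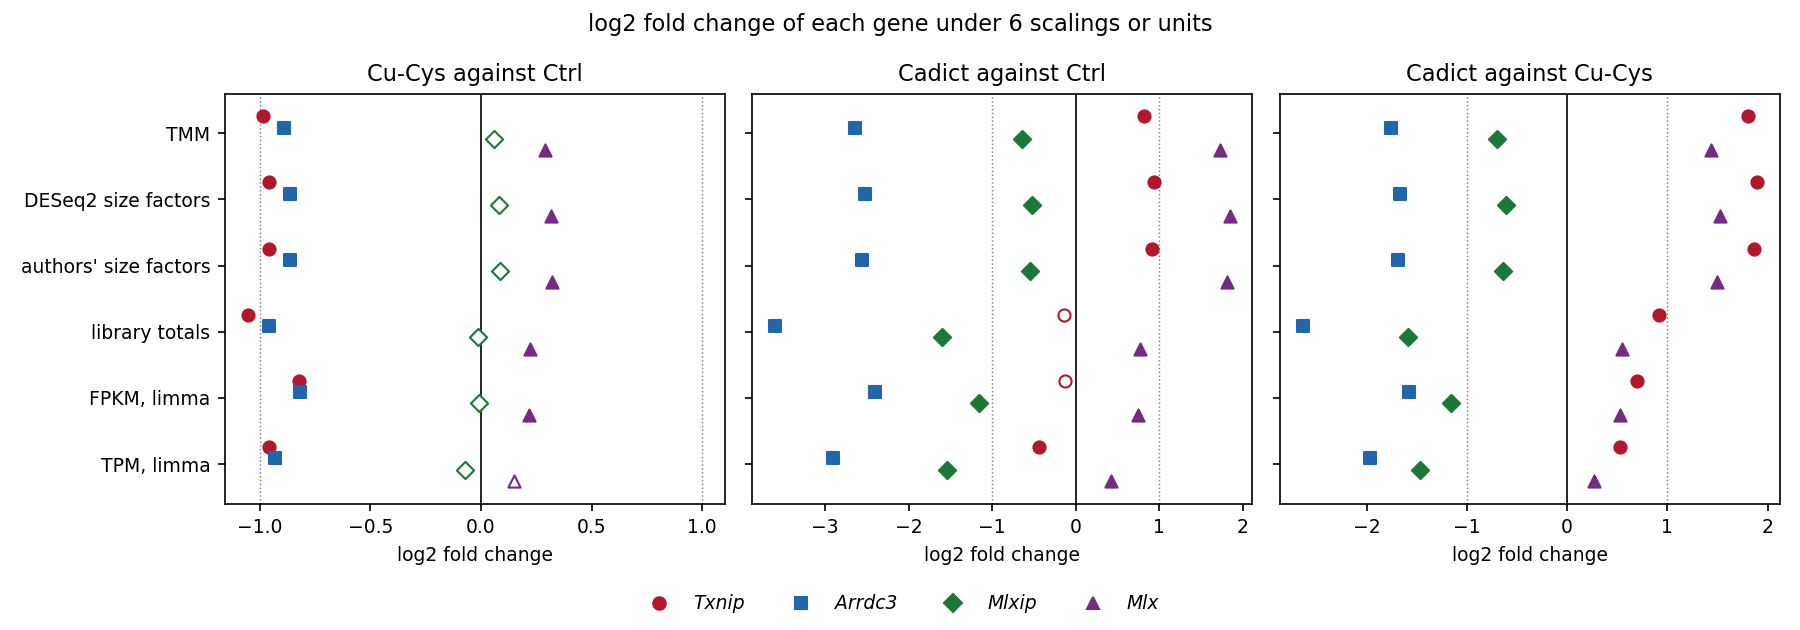
Log2 fold change of each member in 3 comparisons under 6 scalings or units, filled where the test passed at 0.05, and dotted lines at 2-fold. Arrdc3 lies left of 0 throughout, and Mlx lies right of 0 throughout. Txnip in Cadict against Ctrl crosses from 0.82 with TMM to -0.14 with library totals and -0.43 on TPM, while in Cadict against Cu-Cys it stays right of 0.

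Ratios of counts between members within a library do not depend on how libraries are scaled. Mlx had 0.812, 0.933 and 0.771 counts per count of Mlxip in the Ctrl libraries, a mean of 0.839 ± 0.084 (SD, n = 3). The ratio was 0.986 ± 0.090 in Cu-Cys (SD, n = 3) and 4.39 ± 0.645 in Cadict (SD, n = 3). The lowest Cadict value, 3.71, lay above the highest of the other libraries, 1.06, so the partner gene rose relative to the MondoA gene under any scaling. The Txnip count per Arrdc3 count was 0.432 ± 0.055 in Ctrl, 0.405 ± 0.023 in Cu-Cys and 4.76 ± 0.564 in Cadict (SD, n = 3 each). These alpha-arrestins fell to a similar degree with Cu-Cys and parted with Cadict. The ranges of this ratio overlapped between Ctrl and Cu-Cys, and the Cadict range of 4.13 to 5.21 lay apart. Txnip per count of Mlx was 0.469 ± 0.065 in Ctrl, 0.193 ± 0.011 in Cu-Cys and 0.248 ± 0.035 in Cadict (SD, n = 3 each), so Txnip was lower relative to Mlx with both treatments. Txnip per count of Mlxip was 0.390 ± 0.033, 0.190 ± 0.019 and 1.09 ± 0.251 (SD, n = 3 each), highest in Cadict. With 3 libraries against 3, an exact permutation test of a single ratio cannot go below p = 0.10, so these ratios are given as values.

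**Figure D3:**
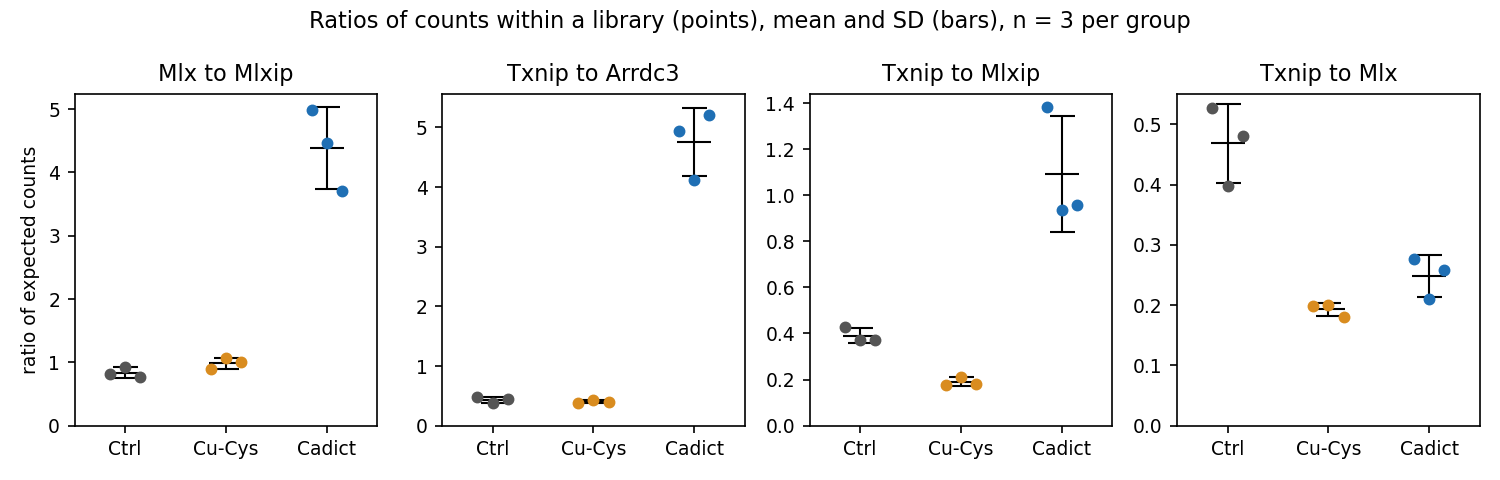
Ratios of expected counts between pairs of members within each library, with a point per library and the mean and SD of each group of 3. Mlx to Mlxip and Txnip to Arrdc3 lie near or below 1 in Ctrl and Cu-Cys and between 3.71 and 5.21 in Cadict, and Txnip to Mlx is highest in Ctrl.

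Levels of different genes were compared as FPKM, which is per length. In Ctrl, mean FPKM was 17.8 for Mlx, 7.79 for Arrdc3, 5.15 for Txnip and 4.67 for Mlxip, and the last 2 overlapped in their libraries. In Cu-Cys the order was Mlx at 20.9, Mlxip at 4.63, Arrdc3 at 3.99 and Txnip at 2.47, where Mlxip (4.27 to 4.99) and Arrdc3 (3.83 to 4.28) just overlapped. In Cadict it was Mlx at 30.6, Txnip at 4.66, Mlxip at 1.54 and Arrdc3 at 0.667, with no overlap between neighbours. Mlx was thus the most abundant member in each group and Arrdc3 moved from the second place in Ctrl to the last in Cadict.

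Shared sequence sets a limit on 2 members. In GENCODE M21 transcripts, 511 of the 3258 stretches of 50 bases in Txnip (15.7%) also occur on the opposite strand in the antisense gene Gm15441, which is not analysed here. For Mlx it was 336 of 2121 stretches (15.8%), shared with the opposite-strand gene Psmc3ip, and Mlx had fractional counts in all 9 libraries. Whether counting used the strand is not given in the sources used here, and without it reads from such a pair cannot be told apart. With TMM, Psmc3ip fell with Cadict (log2 fold change -0.48, SE 0.12, adjusted p = 0.00195), where Mlx rose. The Psmc3ip count has the same limit, so its direction cannot tell whose reads were counted for Mlx. Arrdc3 shared 0 stretches, and Mlxip shared 23 of 8326 on the same strand (0.276%) and 237 (2.85%) on the opposite one.

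The other genes of the axis were counted list by list. Over all genes tested, 40.6% rose and 47.1% fell with Cadict, and 22.6% rose and 22.4% fell with Cu-Cys. Between Cadict and Cu-Cys, 40.3% were higher and 45.6% lower in Cadict. Among the alpha-arrestins, 5 of 6 genes are in the table and 4 were tested. With Cadict 3 fell (Arrdc1, Arrdc2 and Arrdc3) and Txnip rose with TMM, and with library totals the same 3 fell. Their median log2 fold change was -1.07, against -0.13 for all genes. With Cu-Cys, Txnip and Arrdc3 fell and the other two did not pass the test. Arrdc1, an adaptor for the release of vesicles from the plasma membrane, was at 8.43 to 8.98 CPM in Ctrl, 5.81 to 7.94 in Cu-Cys and 2.18 to 3.48 in Cadict. Its log2 fold change was -1.53 with Cadict (SE 0.17, adjusted p = 5e-07) and -0.27 with Cu-Cys (SE 0.13, adjusted p = 0.0883). The Cu-Cys value had an adjusted p of 0.0346 with library totals.

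The beta-arrestins, which desensitise G protein-coupled receptors, also fell with Cadict. Arrb1 was at 42.3 to 48.3 CPM in Ctrl and 17.1 to 18.7 in Cadict, a log2 fold change of -1.30 (SE 0.073, adjusted p = 9.59e-11). Arrb2 changed by -1.10 (SE 0.13, adjusted p = 9.82e-07). With Cu-Cys Arrb1 fell by 0.32 (SE 0.062, adjusted p = 0.000737), and Arrb2 was at -0.029 (SE 0.11, adjusted p = 0.858). The falls of Arrb1 and Arrb2 with Cadict held under TMM, library totals, DESeq2 and the authors' size factors.

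The NEDD4 family holds the ubiquitin ligases that alpha-arrestins recruit. Of 9 genes 8 were tested, and with Cadict 4 rose, 2 fell and 2 did not pass the test, a median of 0.35. With library totals 2 rose and 6 fell. Nedd4l rose from 46.8 to 50.1 CPM in Ctrl to 335 to 378 in Cadict (log2 fold change 2.89, SE 0.059, adjusted p = 1e-15). Hecw2 rose by 3.90 (SE 0.16, adjusted p = 1.85e-12) from a low level of 0.868 ± 0.152 CPM in Ctrl (SD, n = 3). Wwp1 fell by 1.18 (SE 0.064, adjusted p = 7.08e-11). With Cu-Cys 2 rose, 1 fell and 5 did not pass the test, or 1, 3 and 4 with library totals. Nedd4l rose by 0.37 with Cu-Cys (SE 0.059, adjusted p = 0.000169).

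The carbohydrate response list covers 19 genes reported as targets of ChREBP or MondoA, Txnip and Arrdc4 included. Of these 10 were tested, and the 7 others with a row, most of them liver genes, had at most 10 counts in any library. With Cadict 5 rose, 4 fell and 1 did not pass the test, and with Cu-Cys 6 rose, 1 fell and 3 did not pass the test. With library totals 3 rose and 6 fell with Cadict. The single fall with Cu-Cys was Txnip with TMM. For Cu-Cys on library totals 4 rose, 2 fell and 4 did not pass the test. There Khk fell as well, by 0.34 (adjusted p = 0.0475). Rgs16, a regulator of G protein signaling, was at 14.5 to 17.1 CPM in Ctrl, 22.1 to 23.0 in Cu-Cys and 113 to 117 in Cadict. Its log2 fold change was 2.87 with Cadict (SE 0.064, adjusted p = 2.36e-15) and 0.52 with Cu-Cys (SE 0.068, adjusted p = 3.14e-05). Me1, the malic enzyme that makes NADPH, rose by 1.87 with Cadict (SE 0.047, adjusted p = 7.68e-15) and by 0.66 with Cu-Cys (SE 0.046, adjusted p = 9.7e-08).

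Fgf21, which encodes a metabolic hormone, had 0 to 2 counts in each Ctrl library and 161 counts over the 3 Cadict libraries. The TMM-scaled ratio of 161 to 3 counts was 106, with an exact 95% interval of 35.5 to 517 that covers counting error only. Fgf21 passed the filter on low counts through the Cadict libraries alone, and it had 1 count over the 3 Cu-Cys libraries. The list's median with Cadict was 0.24 with Fgf21 and 0.012 without it, and with Cu-Cys 0.18 and 0.21. The 4 genes that fell with Cadict were Klf10, Elovl6, Fasn and Acly, and the last 3 are described here after their values were seen. Elovl6, a fatty acid elongase, rose by 0.55 with Cu-Cys (SE 0.046, adjusted p = 4.7e-07) and fell by 1.34 with Cadict (SE 0.053, adjusted p = 1.43e-12). Fasn and Acly moved the same way with TMM, at 0.33 (adjusted p = 0.000233) and 0.21 (adjusted p = 0.00832) with Cu-Cys and at -0.26 (adjusted p = 0.000518) and -0.33 (adjusted p = 7.97e-05) with Cadict. Relative to the median of all genes these Cadict values were -0.13 and -0.20. On library totals Acly did not pass the test with Cu-Cys, at 0.14 (adjusted p = 0.0872). Acaca, the acetyl-CoA carboxylase of fatty acid synthesis, was at 0.15 (adjusted p = 0.0491) with Cu-Cys and at 0.012 (adjusted p = 0.857) with Cadict.

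Glucose uptake and hexose phosphorylation feed the metabolite that MondoA senses. Of 9 genes 4 were tested, and with Cadict 3 rose and 1 did not pass the test with TMM, whereas with library totals 1 rose and 3 fell. Slc2a1, the GLUT1 gene, was at 79.2 to 83.8 CPM in Ctrl, 126 to 129.6 in Cu-Cys and 315 to 329 in Cadict. Its log2 fold change was 1.99 with Cadict (SE 0.048, adjusted p = 4.92e-15) and 0.65 with Cu-Cys (SE 0.047, adjusted p = 1.2e-07). Hk2, a hexokinase, rose by 0.49 with Cu-Cys (SE 0.061, adjusted p = 1.85e-05). With Cadict it was at 0.69 (SE 0.063, adjusted p = 3.56e-08) with TMM and -0.26 (adjusted p = 0.00187) with library totals. Gpi1, which interconverts glucose and fructose phosphates, was at 0.50 (SE 0.056, adjusted p = 4.38e-07) and -0.45 (adjusted p = 6.71e-07) with Cadict in the same 2 scalings. With Cu-Cys 2 of the 4 rose, 1 fell and 1 did not pass the test.

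TXNIP binds and inhibits thioredoxin, and it can bind the inflammasome sensor NLRP3. Of the 5 genes of this list the 4 of the thioredoxin system were tested, and Nlrp3 was at 1 to 7 counts a library. With Cadict all 4 rose with TMM, and 3 of them were called, a median of 1.71. With library totals 3 rose and 1 fell. Txnrd1, thioredoxin reductase, was at 207 to 212 CPM in Ctrl, 354 to 362 in Cu-Cys and 2843 to 3261 in Cadict. Its log2 fold change was 3.89 with Cadict (SE 0.061, adjusted p = 8.57e-17) and 0.77 with Cu-Cys (SE 0.055, adjusted p = 1.13e-07). Txn2, the mitochondrial thioredoxin, rose by 2.15 (SE 0.076, adjusted p = 3.62e-13) and 0.51 (SE 0.075, adjusted p = 8.2e-05). Txn1, the thioredoxin that TXNIP binds, rose by 0.51 with Cu-Cys (SE 0.081, adjusted p = 0.000157). Its value with Cadict was 1.28 (SE 0.082, adjusted p = 5.13e-10) with TMM and -0.056 (adjusted p = 0.377) on the deposited TPM. With Cu-Cys Txnip thus fell while Txn1, Txn2 and Txnrd1 rose, and Txnrd2 had an adjusted p of 0.415.

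AMPK is the energy-sensing kinase that can phosphorylate TXNIP, and all 9 genes of its subunits and upstream kinases were tested. With Cadict 4 rose and 5 fell, a median of -0.37, or 2 and 6 with library totals. With Cu-Cys 0 rose, 2 fell and 7 did not pass the test, or 0, 4 and 5 with library totals. Among the falls with Cu-Cys, Camkk2 had an adjusted p of 0.015 by edgeR and of 0.0776 with the DESeq2 Wald test. Camkk2, an upstream kinase, fell by 1.48 with Cadict (SE 0.071, adjusted p = 1.41e-11). Prkaa2, a catalytic subunit, fell by 1.20 (SE 0.20, adjusted p = 3.85e-05). Prkag1, a regulatory subunit, was at 1.22 (SE 0.056, adjusted p = 8.85e-12) with TMM and at -0.095 (adjusted p = 0.192) on the deposited TPM.

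**Figure D4:**
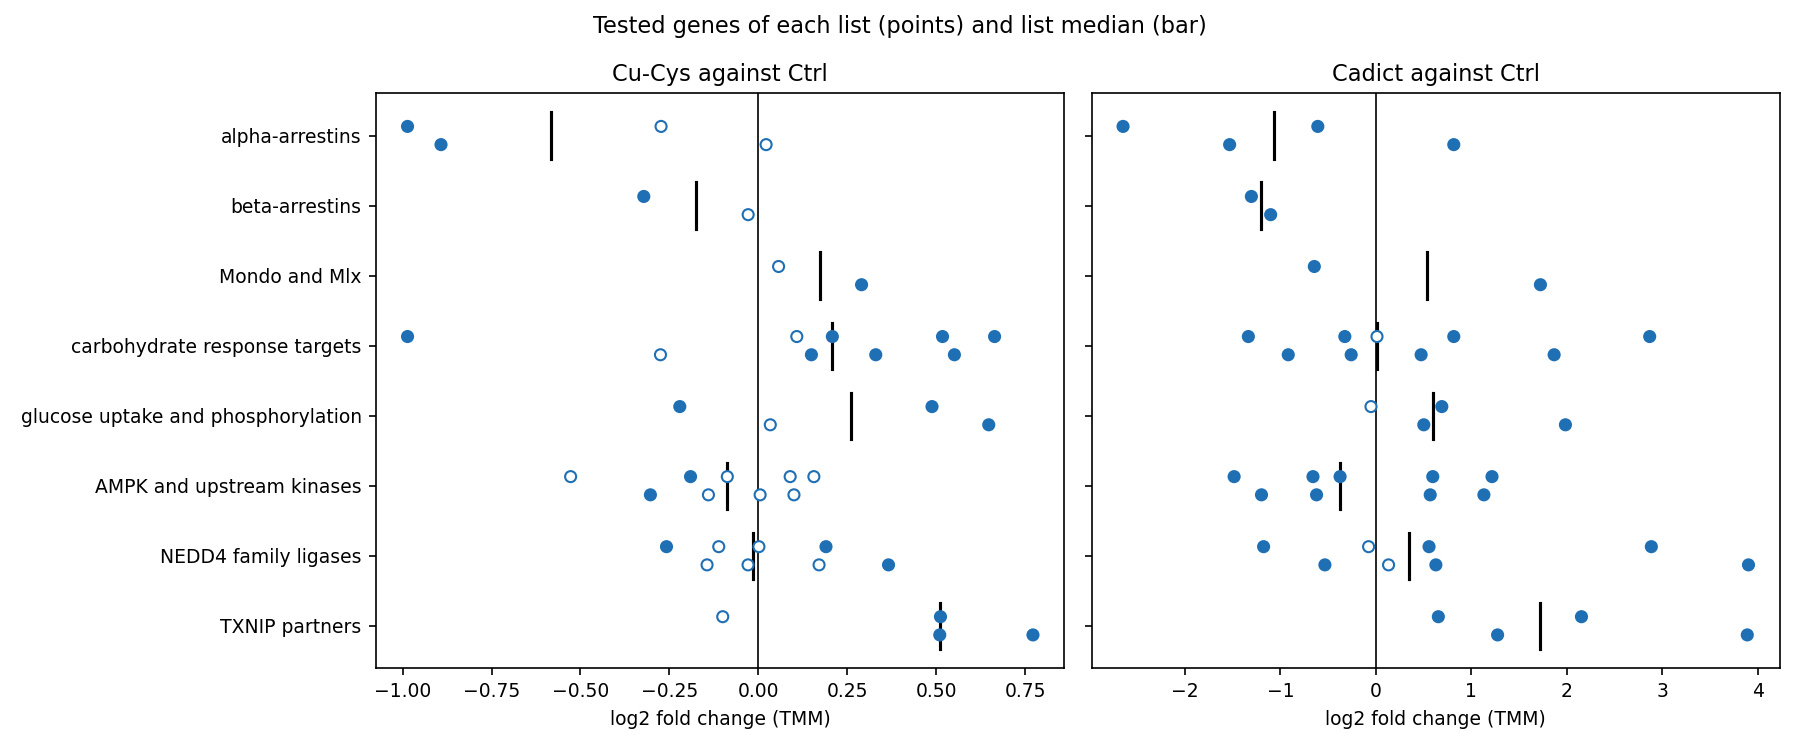
Log2 fold change (TMM) of each tested gene in 8 lists for Cu-Cys against Ctrl and Cadict against Ctrl, filled where the test passed at 0.05, and a bar at the list median. Fgf21 is left out because its Ctrl libraries hold at most 2 counts each, and the horizontal scales of the panels differ. Txnip and Arrdc3 are the 2 leftmost alpha-arrestins with Cu-Cys, while 3 of the 4 thioredoxin system genes lie right of 0.5 there. With library totals, values in the right panel shift to the left, which turns the direction of Txnip, Hk2, Gpi1 and others with positive values under 0.95.

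The genes most like each member were sought among 8550 tested genes with a mean of at least 10 CPM, by the root mean square difference over 9 libraries of log2 levels centred on Ctrl. For Txnip these were Akap7 (difference 0.185), Ift140 (0.186) and Chd5 (0.188), which changed by -0.76, -0.77 and -1.15 with Cu-Cys and by 0.77, 0.94 and 0.62 with Cadict. For Arrdc3 they were Tent5b (0.0967), Tap1 (0.108) and Rin2 (0.123), with changes of -2.61, -2.74 and -2.47 with Cadict. Mlxip was closest to Mtcl1 (0.0768), Plcl2 (0.0827) and B3gnt2 (0.0833). Mlx was closest to Mthfd2 (0.0464), a mitochondrial one-carbon enzyme, Fxr2 (0.0522) and Kpna1 (0.0556), which changed by 1.73, 1.75 and 1.71 with Cadict. The neighbours of Txnip lay farther off than those of the other 3 members. This difference includes the spread between replicates, and how much of the Txnip distance it makes up was not tested.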

How the data were processed

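Poly(A)-selected RNA of 9 MC38 libraries was compared, 3 each of Ctrl, Cu-Cys and Cadict. The authors deposited 1 table that gives, per gene and library, the expected count, the FPKM and TPM values and a signal that is the count over a size factor of that library. The submitters' processing notes name HISAT2 2.1.0, Bowtie2 2.3.4.3 and RSEM 1.3.1, with GRCm39 and GRCh38.p13 as builds. The paper names TRIzol and an Illumina instrument, the labels a column kit and DNA nanoball sequencing. Columns marked CC were read as Cu-Cys and those marked CCGE as Cadict, an inference from its components. Another 12 columns of group averages were not used. Expected counts were rounded and tested in R 4.3.3 with edgeR 4.0.16 (filterByExpr, TMM, 1 quasi-likelihood fit of 3 groups). A count of 0 allows up to 3 counts, or 0.130 to 0.261 CPM.

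The members and gene lists were chosen with earlier results of these data known. The text names all members, the 3 tested genes of each list with the largest absolute change in Cadict against Ctrl (shorter lists in full), the 3 genes most like each member, and others where stated. Promoters came from RefSeq (GRCm38.p6) and matched all 5 members by symbol. Alternatives were DESeq2 1.42.0 (size factors, Wald test), library totals, other filters, a replicate block, limma 3.58.1 on log2 FPKM or TPM plus a pseudocount of 1 or 0.1, fits of 2 groups, each library left out, and, chosen after seeing the data, the authors' size factors. Residuals of same-numbered replicates correlated at -0.192 to 0.161 over 8551 genes, so numbers were not treated as pairs. The fits were tested on simulated data in which few genes changed, as many up as down. That simulation held no shift in composition like the one with Cadict, so it did not check the scaling.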

Additional observations from a re-analysis of the deposited data

How the results depend on the processing

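Txnip in Cadict against Ctrl changed direction in 4 settings, at -0.14 with library totals, -0.13 on FPKM, -0.43 on TPM with a pseudocount of 1 and -0.49 with a pseudocount of 0.1. Leaving out 1 library at a time gave 0.73 to 0.94. In the same 4 settings and order, Hk2 was at -0.26, -0.21, -0.55 and -0.57 against Ctrl and at -0.68, -0.62, -0.89 and -0.93 against Cu-Cys, Gpi1 at -0.45, -0.46, -0.80 and -0.80 against Ctrl and at -0.42, -0.42, -0.69 and -0.69 against Cu-Cys, and Txn1 at -0.12, -0.14, -0.42 and -0.42 against Cu-Cys. On TPM with a pseudocount of 1 and 0.1, Prkag1 was at -0.095 and -0.096 and Txn1 at -0.056 and -0.056 in Cadict against Ctrl. The settings on library totals, FPKM and TPM leave out the correction for composition, and TMM put the median of all genes 0.95 higher in that comparison than library totals did. TMM takes most genes as unchanged, which was not tested, and 87.7% of all genes passed at 0.05 in that comparison. On TPM the values of these genes lay lower than with library totals, and the cause was not tested. Members called in Cu-Cys against Ctrl were 1 with library totals, 1 with at least 10 counts in every library, 2 on TPM with a pseudocount of 0.1, and 0 to 1 with 1 library left out, each time by Txnip, joined by Arrdc3 on TPM, close to the 2-fold limit. Mlx in Cu-Cys against Ctrl was at 0.15 (adjusted p = 0.191) and 0.15 (adjusted p = 0.205) on TPM with pseudocounts of 1 and 0.1, and the cause was not tested. All other results on members, 156 with another setting and 133 with a library left out, kept their side of the threshold, or a count within 1.5 times. They also kept their direction, except Mlxip in Cu-Cys against Ctrl, which passed the test in none of them and ran from -0.082 to 0.12. In the fit with the replicate number as a block, Txnip in Cu-Cys against Ctrl was at -0.98, and the block changed no call on a member. Genes called in Cu-Cys against Ctrl were 196 in the main fit, 71 with limma on FPKM, 117 on TPM with a pseudocount of 1 and 119 with at least 10 counts in every library. In Cadict against Ctrl 43.3% of called genes were higher with TMM and 11.9% with library totals. In Cadict against Cu-Cys it was 44.1% and 10.8%. Depth limits Arrdc3 in Cadict, which rests on 40 to 47 counts a library.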
